A study of Mus musculus with 17 samples.

Results

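Aquaporins pass water and small solutes across cell membranes, and carbonic anhydrases are enzymes that interconvert carbon dioxide and bicarbonate. Of their genes, 7 were followed here in cells rinsed from the air spaces of mice: Aqp1, Aqp3, Aqp5, Aqp9, Car2, Car4 and Car13. The members were all probe sets (sets of short probes that together report 1 transcript) annotated to exactly 1 of these genes. There were 14 such probe sets among 45101 on the array, for 7 of 18193 genes with a symbol. The set was selected on the lower signal of Aqp1 and the higher signal of Car4 in the urethane arrays. Those 2 differences are therefore given below as descriptions, with their standard errors and no test, and an adjusted p is given only for the other genes that passed a filter on low signals.

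The arrays hold RNA of bronchoalveolar lavage cells from mice of the A/J strain, an inbred strain in which the carcinogen urethane produces lung tumours. The 6 control arrays came from untreated animals of matched age and the 11 urethane arrays from treated ones. The labels used here give neither the dose of urethane nor the time after it, nor whether every array stands for its own animal. The p-values therefore speak only to the scatter among these arrays, some of which may be technical. Arrays are named by the number in their label, and control 6_13 carried 2 numbers. No allele or further agent is labelled in either group. A further label calls all 17 samples lung tissue of healthy mice, treated ones included, and the lavage label was followed here.

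Aquaporins are membrane channels. Some pass water alone, and others, called aquaglyceroporins, also pass glycerol and other small solutes. Carbonic anhydrases speed the conversion of carbon dioxide and water to bicarbonate and a proton, either in the cytosol or, for forms anchored outside the cell, at its surface. In the lung, Aqp1 is known from capillary endothelium and red blood cells and Aqp5 from alveolar type 1 cells, while Car4 is known both from capillaries and as a marker of mouse alveolar macrophages, the main cells of lavage fluid.

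The scan files split the arrays into 2 scan days that were also 2 chip lots, with 2 control and 5 urethane arrays on scan day 1 and 4 control and 6 urethane arrays on scan day 2. They also name 2 fluidics stations, where the arrays were stained, with 1 control and 8 urethane arrays on station 1 and 5 control and 3 urethane arrays on station 2. By the authors' scaling, each array had a trimmed mean signal of 500. The 40th percentile signal, below which a value is called low here, ran from 35.6 to 128 among the arrays. All 16 genes of an alveolar macrophage marker list, members left out, passed the filter on low signals. Their mean log2 level lay between 13.65 and 13.88 in controls and between 13.23 and 13.80 after urethane. On scan day 2 it ran from 13.646 to 13.877 in controls and from 13.225 to 13.653 after urethane. Over both days 1 of the genes was higher and 2 were lower after urethane, against 2.00% and 1.14% of all genes. With scan day as a block 1 was higher and 4 were lower, where 7.75% of all genes passed in either direction. Levels below are log2 of the signal plus 17.1, so differences of dim genes are understated. In a mixture of cells such as this, fewer cells of a type and less RNA per cell cannot be told apart.

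Aqp1, the constitutive water channel, had 1 probe set. Among controls its signal was 140 in control 14, 227 in control 6_13, 247 in control 37, 262 in control 36, 864 in control 33 and 868 in control 35. After urethane it ran from 28.1 in urethane 8 to 183 in urethane 34, with a median of 56.9. Urethane 34 was the only treated array that reached into the control range, and the other 10 lay below the lowest control. The mean log2 level was 8.50 ± 1.04 (SD, n = 6) in controls against 6.13 ± 0.60 (SD, n = 11) after urethane, so that urethane minus control was -2.36 on the log2 scale (SE 0.37). Among all genes tested 1.14% passed the test as lower, and nothing is read from that share here because Aqp1 was selected on this contrast. Within days it was -1.73 (SE 0.54, day 1) and -2.59 (SE 0.41, day 2). Without urethane 34, the array that reached into the control range, the difference was -2.51. The Aqp1 difference was -2.50 with fluidics station as a block and -1.93 on station 2 alone, and station 1 held too few controls for a value. The signal was above the low-signal limit of its array on all 6 control arrays and on 4 of 11 urethane arrays, so it entered the fit through the controls and most treated values were low signals.

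Markers of red cells and endothelium, both known to carry Aqp1, were set beside it. Of the erythroid list, 8 of 11 genes on the array were tested. Of these, 0 passed in limma and 0 had an unadjusted p below 0.05, against 3.14% and 14.7% of all genes. The mean log2 level of the list ran from 6.17 to 7.62 in controls and from 5.12 to 8.02 after urethane, with the highest value on urethane 34. The signal of Alas2, the first enzyme of heme synthesis in red cell precursors, ran from 129 to 3423 in controls and from 3.1 to 5188 after urethane. It was highest on urethane 9, where the Aqp1 signal was 56.9, and it was 129 on control 36, where Aqp1 was 262. On urethane 3, 5, 7 and 8 the Alas2 signal was from 3.1 to 11.8, and that of Aqp1 from 28.1 to 61.3. The median log2 difference of the erythroid list was -0.33, against -0.03 over all genes. Within days it was -0.96 on day 1 and -0.055 on day 2, against -0.04 and 0.02 over all genes. Of the endothelial list 6 of 14 genes were tested and 0 passed in limma, with 1 at an unadjusted p below 0.05, while Pecam1, Tek and Cldn5 were among the 8 below the filter. The median log2 difference of this list was 0.14, at -0.42 on day 1 and 0.46 on day 2. With scan day as a block 1 gene of the list was higher and 0 were lower. It was Cdh5, the cadherin of endothelial junctions, at 1.56 (SE 0.33), with 0.52 on day 1 and 2.18 on day 2. Cdh5 was above the low-signal limit on 2 of 6 control and 10 of 11 urethane arrays. It thus entered the fit through the urethane arrays, and its p is not given. In the fit with that block 7.75% of all genes passed. The mean log2 level of the endothelial list ran from 6.88 to 7.56 in controls and from 6.65 to 8.63 after urethane. What part either cell type had in the Aqp1 difference was not tested.

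**Figure D1:**
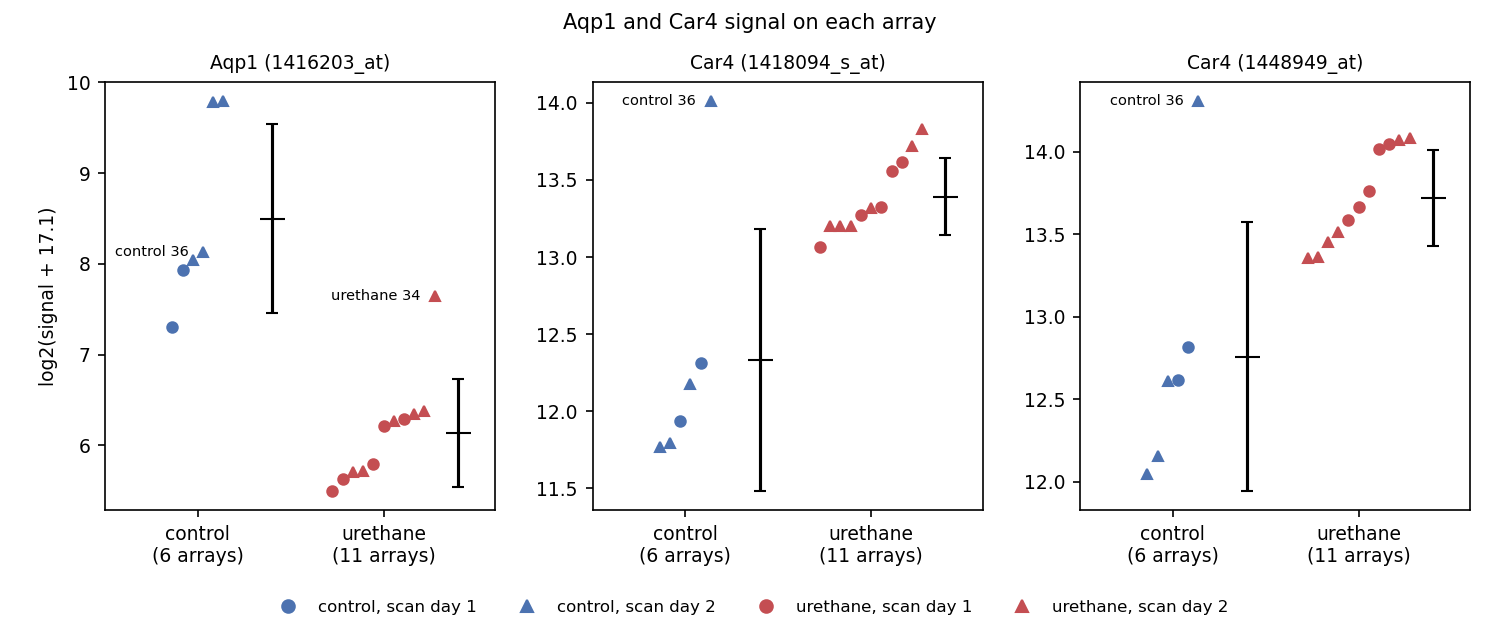
Level of Aqp1 (1 probe set) and Car4 (2 probe sets) as log2 of the signal plus 17.1, on the vertical axis, for 6 control and 11 urethane arrays, each a point (circle for scan day 1, triangle for scan day 2), ordered by value within a group. Black bars give the mean and SD. Urethane 34 is the only treated array in the control range of Aqp1, and control 36 is the highest of all 17 arrays for both Car4 probe sets.

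Car4, the carbonic anhydrase held to the outer cell membrane by a lipid anchor, was bright on every array and higher after urethane. Of its 2 probe sets, the brighter gave control signals of 4207 in control 35, 4554 in control 33, 6249 in control 37, 6254 in control 6_13, 7193 in control 14 and 20245 in control 36. The urethane signals ran from 10456 to 17352 with a median of 12964. Control 36 thus lay above all 11 urethane arrays, and the other 5 controls lay below all of them. The mean log2 level was 12.76 ± 0.81 (SD, n = 6) in controls against 13.72 ± 0.29 (SD, n = 11) after urethane, so that the difference was 0.96 (SE 0.23). Of all genes tested 2.00% passed as higher, a share from which nothing is read for a gene selected on this contrast. Without control 36 the control mean was 12.45 ± 0.33 (SD, n = 5) and the difference was 1.27. With all 17 arrays, 0.471% of the genes tested had groups that did not overlap, and none of the 7 genes was among them.

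The dimmer Car4 probe set, whose identifier has a suffix that marks probes that may also match related transcripts, had the same arrangement of arrays. Its signal was 16481 in control 36, from 3463 to 5070 in the other 5 controls, and from 8571 to 14572 after urethane. The log2 difference was 1.06 (SE 0.23) with all arrays, and 1.40 with control 36 left out. For the brighter probe set the difference was 1.10 (SE 0.38) on scan day 1 and 0.86 (SE 0.29) on the later day, which held control 36. It was 0.99 with fluidics station as a block and 0.70 on station 2 alone. Control 36 stood apart for Car4 and not for Aqp1, where its signal of 262 was the third highest of the 6 controls. The alveolar macrophage marker list, whose mean log2 level was 13.65 on control 36, was at its lowest control value there. The neutrophil, T cell, alveolar type 2 and NK lists were at their highest control values on control 36, with means of 9.18, 8.07, 9.41 and 6.81. The monocyte list, at 9.664 there, was level with control 33 at 9.663. Of the T cell list 14 of 15 genes were tested, and 3 were higher and 0 lower after urethane, against 2.00% and 1.14% of all genes. Its mean ran from 5.61 to 8.07 in controls and from 6.76 to 8.56 after urethane. The part of these cells in the Car4 values was not tested.

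The cytosolic forms Car2 and Car13 were each above the control mean on all 11 urethane arrays. Of all genes tested, 7.77% had every urethane array on the same side of the control mean. Neither passed the test in the fit of all 17 arrays. None of the 4 other members that could be tested passed an adjusted p of 0.05 in limma, and 1 of them, Car13, had an unadjusted p below 0.05, as did 14.7% of all genes. Over all genes 421 of 13390 passed, or 3.14%, so a count of 0 among 4 is no result about these genes.

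Car13, a cytosolic form, had 3 probe sets. For the brightest the control signals were 525, 570, 597, 600, 699 and, on control 36, 933. The urethane signals ran from 644 to 1093 with a median of 853, and 4 of the 11 lay above control 36. The mean log2 level was 9.37 ± 0.29 (SD, n = 6) in controls against 9.79 ± 0.24 (SD, n = 11) after urethane, so that the difference was 0.43 (SE 0.13, 95% interval 0.16 to 0.70, limma adjusted p = 0.0874). It passed when scan day entered the fit as a block (0.47, SE 0.10, limma adjusted p = 0.0051), a fit in which 7.75% of genes passed, and within scan days 1 and 2 it was 0.44 and 0.49. Among the arrays left out singly it passed without control 36 (0.53, limma adjusted p = 0.015) and without urethane 9 (0.47, limma adjusted p = 0.046).

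The other Car13 probe sets, fitted with all 29550 probe sets that passed the filter, gave log2 differences of 0.57 (SE 0.19, limma adjusted p = 0.15) for the next in brightness and 0.29 (SE 0.38, limma adjusted p = 0.834) for the dimmest. Of those 29550 probe sets 1.58% passed. The signal of the former was 588 on control 36 and from 292 to 421 in the other controls, against 400 to 1018 after urethane. The dimmest differed in sign between the days, at -0.68 on scan day 1 and 0.81 on scan day 2.

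Car2, the fast and widely expressed cytosolic form that is abundant in red cells, had 1 probe set. Its signal was 71.2, 118, 138, 163, 163 and 263 in controls, the highest being control 35. After urethane it ran from 148 to 707 with a median of 173, and urethane 34 at 707 was far above the next array, urethane 33 at 267. The mean log2 level was 7.32 ± 0.55 (SD, n = 6) in controls against 7.83 ± 0.62 (SD, n = 11) after urethane. The log2 difference was 0.51 (SE 0.28, 95% interval -0.08 to 1.10, limma adjusted p = 0.432), and 0.34 without urethane 34. Within days 1 and 2 it was 0.58 and 0.56.

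**Figure D2:**
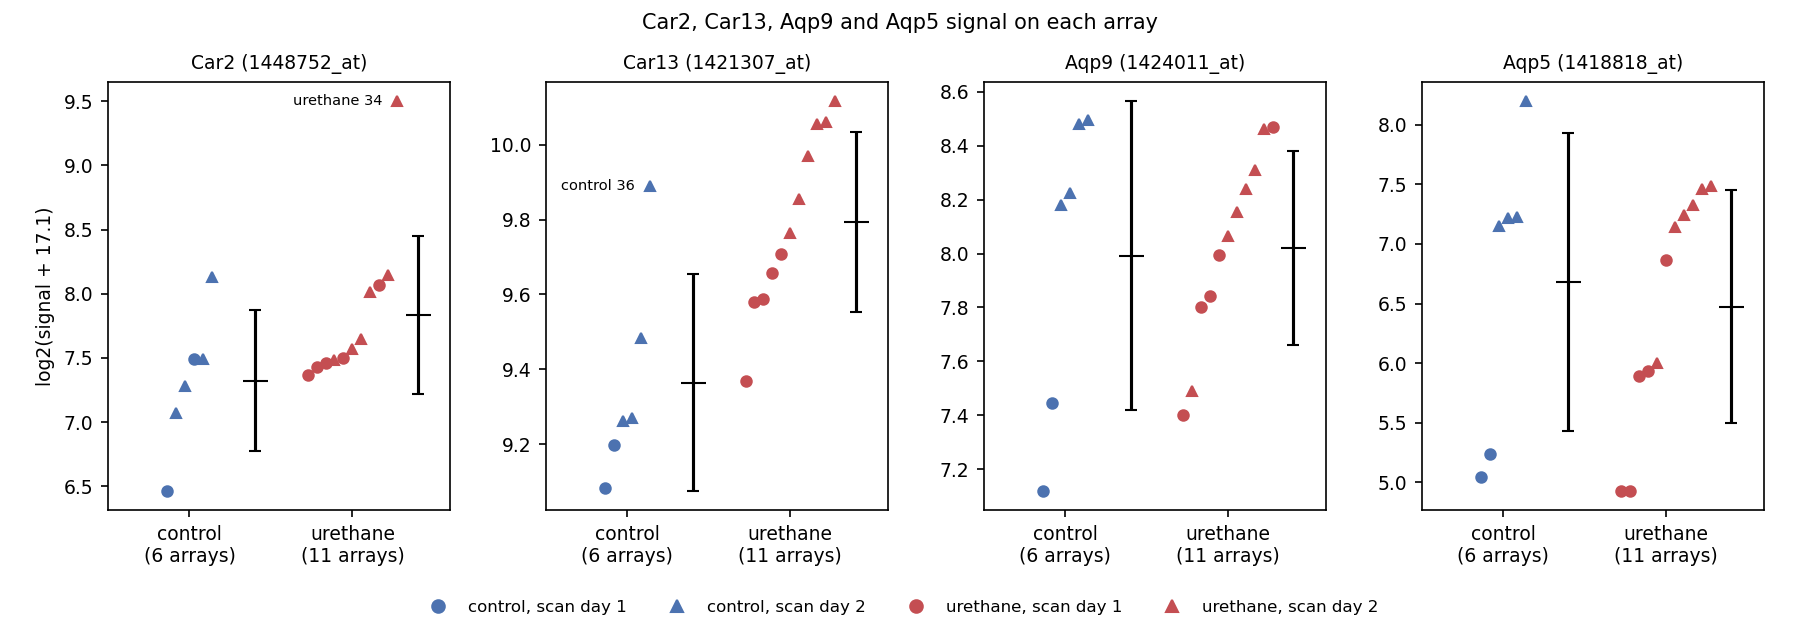
Level of Car2, Car13, Aqp9 and Aqp5 (brightest probe set of each) as log2 of the signal plus 17.1, on the vertical axis, for 6 control and 11 urethane arrays, each a point (circle for scan day 1, triangle for scan day 2), ordered by value within a group. Black bars give the mean and SD. Control 36 is the highest control for Car13, urethane 34 the highest array for Car2, and the lowest Aqp5 values are on scan day 1.

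Aqp9, an aquaglyceroporin known from liver and leukocytes, had 2 probe sets, and neither passed. For the brighter the signals ran from 122 to 344 in controls (median 277) and from 152 to 337 after urethane (median 251), and the treated range lay inside the control range. The mean log2 level was 7.99 ± 0.57 (SD, n = 6) and 8.02 ± 0.36 (SD, n = 11), and they differed by 0.03 (SE 0.22, 95% interval -0.43 to 0.49, limma adjusted p = 0.974). Within days it was 0.62 (SE 0.29, day 1) and -0.23 (SE 0.22, day 2). The test of that change from day to day missed the threshold (limma adjusted p = 0.247 for the interaction).

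The dimmer Aqp9 probe set was at 0.57 on scan day 1 and at -0.94 on the later day (limma adjusted p = 0.135 for the interaction, which passed for 0.0169% of probe sets). On scan day 1 its signal was 111 and 114 in the 2 controls and from 104 to 230 after urethane. On scan day 2 it ran from 162 to 268 in controls and from 58.4 to 198 after urethane. Of the 4 members other than Aqp1 and Car4 that were tested, 0 had an interaction of group with scan day past the threshold in limma, which 0.0822% of all genes passed. Of the 4, 1 (Aqp9) had an unadjusted interaction p below 0.05, as did 17.4% of all genes. Of the neutrophil list 12 of 14 genes were tested, and 2 were higher and 0 lower, against 2.00% and 1.14% of all genes. This list had a mean log2 level of 7.85 to 9.18 in controls and 7.96 to 11.21 after urethane. Its part in the Aqp9 difference between groups was not tested, and its relation to Aqp9 within the urethane arrays is given below.

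Aqp5, the water channel of the outer membrane of alveolar type 1 cells, had 1 probe set, whose levels lay apart by scan day in the controls. On scan day 1 its signal was 15.9 and 20.7 in the 2 controls and from 13.4 to 99.3 after urethane. On scan day 2 it ran from 125 to 276 in controls and from 46.9 to 162 after urethane. The log2 difference was -0.21 (SE 0.50, 95% interval -1.24 to 0.82, limma adjusted p = 0.905), at 0.56 on scan day 1 and -0.34 on the later day (limma adjusted p = 0.474 for the interaction). The alveolar type 1 list, Aqp5 left out, had 11 of 12 genes tested, 0 higher and 1 lower, against 2.00% and 1.14% of all genes. Its mean log2 level was 7.81 to 8.60 in controls and 7.21 to 8.41 after urethane. The lower gene was Cav1, the coat protein of caveolae, at -0.89 (limma adjusted p = 0.0185). The receptor Ager, a defining gene of those cells, had signals from 43.8 to 236 in controls and from 8.9 to 168 after urethane.

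Aqp3, an aquaglyceroporin of airway basal cells, had 4 probe sets, and 0 of them rose above the low-signal limit on the 6 arrays the filter asks for. The brightest did so on 3 control and 2 urethane arrays, with signals from 36.3 to 239 in controls and from 5.7 to 268 after urethane. Its log2 difference was -0.98 (SE 0.48), with no test in the main fit. The other 3 probe sets were low on all 17 arrays. In the airway epithelium list 6 of 17 genes tested were lower and 0 higher, against 1.14% and 2.00% of all genes. Its mean log2 level was 8.18 to 9.58 in controls and 7.19 to 8.66 after urethane, and its part in the Aqp3 values was not tested. The 6 were genes of secretory or ciliated cells (Bpifa1, Bpifb1, Cyp2f2, Scgb1a1, Scgb3a2 and Tppp3). The basal cell genes of the list did not pass, Krt5 at 0.29 and Trp63 at -0.14.

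**Figure D3:**
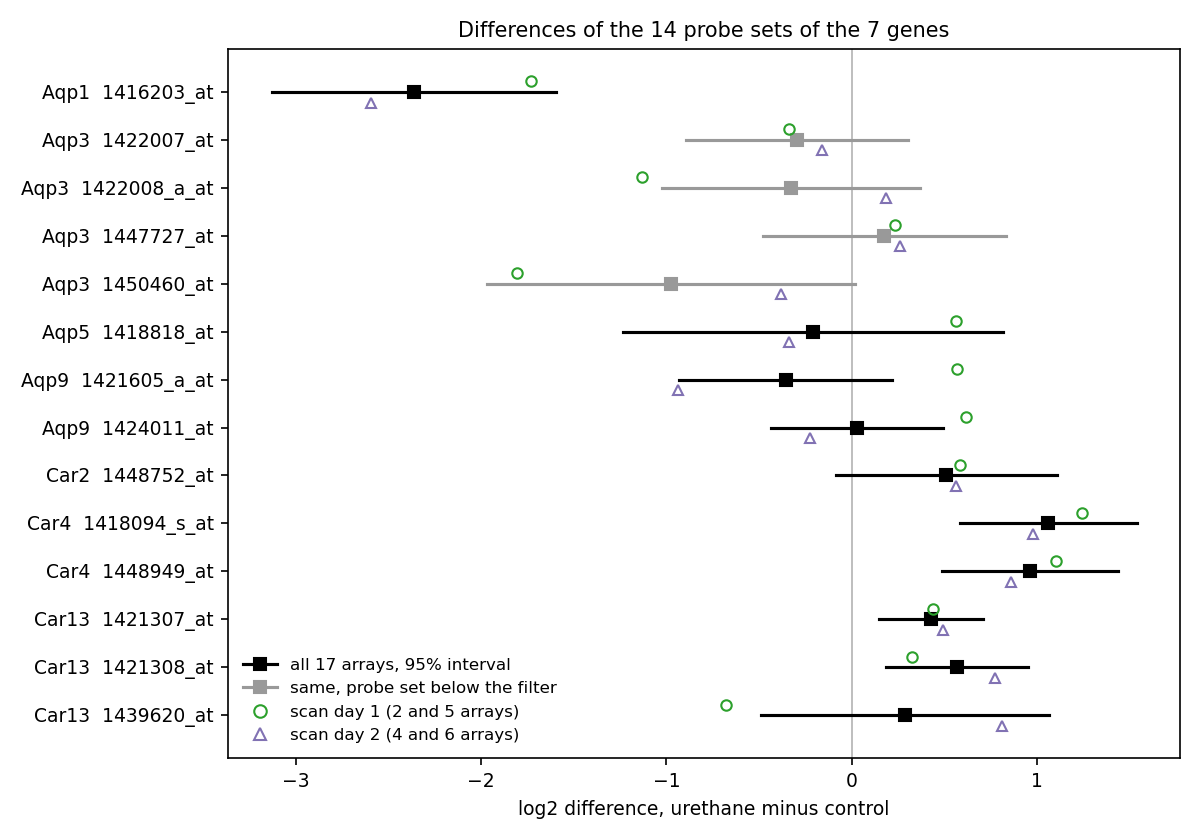
Log2 difference, urethane minus control, of each of the 14 probe sets of the 7 genes. Squares with bars give the fit of all 17 arrays and its 95% interval (grey where the probe set was below the filter), circles scan day 1 and triangles scan day 2. Aqp1 lies far to the left and both Car4 probe sets to the right of 0 on each day, whereas both Aqp9 probe sets and Aqp5 lie on opposite sides of 0 on the 2 days.

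Relations among the members were examined within the 11 urethane arrays, since these do not use the difference between the groups. There were 20 relations: 15 between pairs of the 6 tested members and 5 between a member and the mean of the marker list of a cell type known to express it. Arrays share scaling and scan day, and scan day 1, with 5 urethane arrays, was too small for a value of its own. The permutations ignored scan day, so their p-values do not separate a shift between days from covariation within a day. Aqp1 was above the low-signal limit on 4 of these 11 arrays, so its correlations over them are given as descriptions, with no test. They cannot show that Aqp1 and another gene were unrelated. The relations of Aqp1 still entered the adjustment of p over the 20. With Car4 its Pearson r was 0.07 and its Spearman rho -0.15 over the 11 arrays, and r was -0.52 without urethane 34. In the 6 controls, where every Aqp1 value was above the limit, r was -0.52 (exact permutation p = 0.338). With the endothelial list Aqp1 had r = 0.23 over the 11 arrays. Car4 had r = 0.48 with the alveolar macrophage list (permutation p = 0.136, adjusted p = 0.453), and -0.71 in the controls (exact permutation p = 0.0861). Aqp9 had r = -0.01 with the neutrophil list (permutation p = 0.98, adjusted p = 0.98).

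Car2 followed the erythroid list (r = 0.73, permutation p = 0.0013, adjusted p = 0.026, rho = 0.79, permutation p = 0.0056, adjusted p = 0.0561, n = 11). It kept r = 0.70 (permutation p = 0.0403) without urethane 34 and urethane 5, the 2 arrays with the most extreme list means. Within the 6 urethane arrays of scan day 2 r was 0.69 (exact permutation p = 0.0667), and in the 6 controls it was 0.53 (exact permutation p = 0.243). Slc4a1, a member of that list, is the chloride and bicarbonate exchanger of red cells. Its signal was 706 on urethane 34 and at most 185 on the other urethane arrays. On urethane 34 Hbb-b2 of the same list was at 737, while Hba-a1 was at 40.5, below the lowest control at 89.1. On urethane 9 Alas2 was at 5188 and Hba-a1 at 18.2, so the genes of the list did not all move together. With Aqp1, Car2 had r = 0.88 and rho = 0.43 over the 11 arrays. That r was 0.525 without urethane 34, the highest urethane array for both genes, and 0.883 without urethane 8. In the controls it was 0.56 (exact permutation p = 0.301).

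Aqp5 was related to the alveolar type 1 list (r = 0.77, permutation p = 0.0078, adjusted p = 0.0455, rho = 0.70, permutation p = 0.021, adjusted p = 0.14) and to Car13 (r = 0.75, permutation p = 0.0091, adjusted p = 0.0455, rho = 0.80, permutation p = 0.0046, adjusted p = 0.0561). Without the 2 farthest arrays r was 0.73 (permutation p = 0.0228) for the list and 0.63 (permutation p = 0.0804) for Car13. Both Aqp5 and the list were higher on scan day 2 in the urethane arrays. The mean Aqp5 level was 5.71 on day 1 and 7.11 on day 2, and the list mean was at most 7.77 and at least 8.04. Neither relation held within scan day 2, where r was 0.07 (exact permutation p = 0.954) and 0.37 (exact permutation p = 0.511), and in the controls r was 0.79 (exact permutation p = 0.0444) and 0.57 (exact permutation p = 0.226). By the adjusted p of Pearson's r 4 of the 20 relations passed: the erythroid list with Car2, the pair of relations of Aqp5, and Aqp1 with Car2, whose p is not used. All 4 lost their call when any of urethane 5, 7, 8, 9, 32, 33 or 34 was left out, and 1 passed without urethane 31 or 35, 2 without urethane 36 and 3 without urethane 3.

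**Figure D4:**
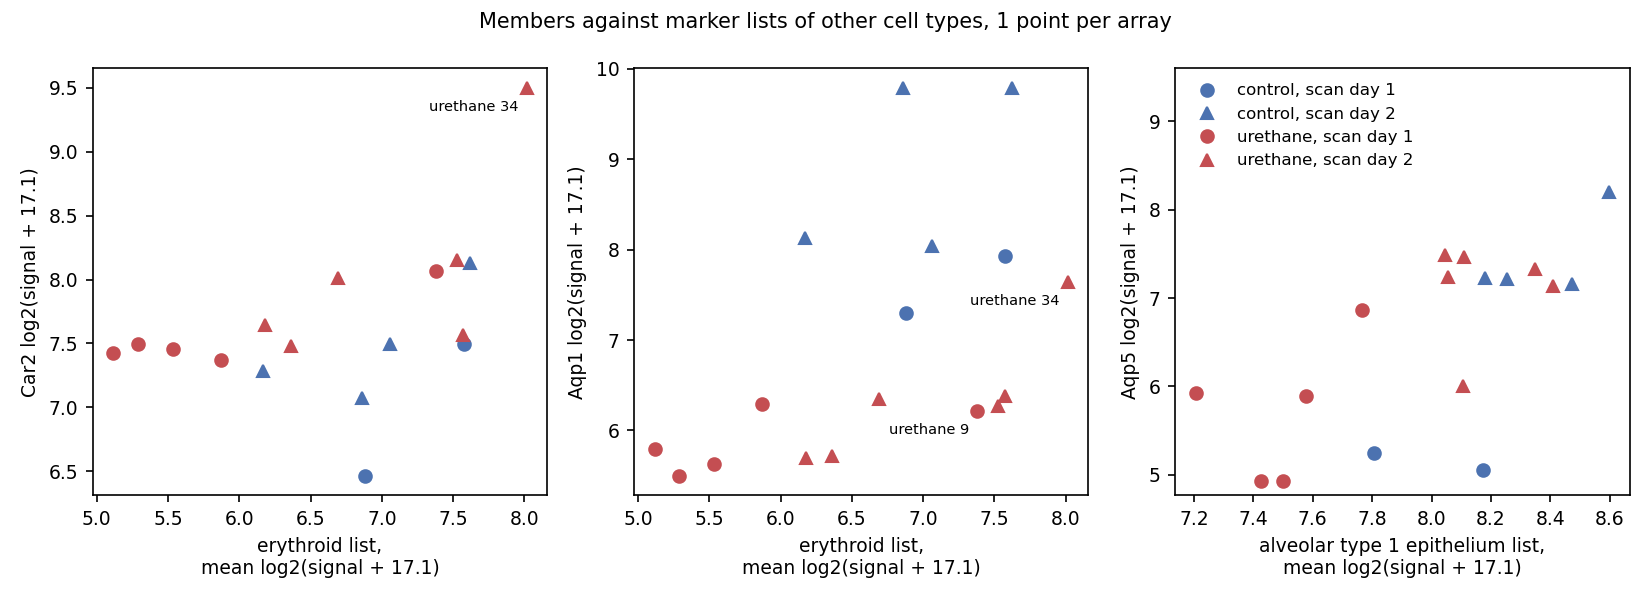
Car2 and Aqp1 against the mean level of the erythroid marker list, and Aqp5 against that of the alveolar type 1 list, 1 point per array, all as log2 of the signal plus 17.1. Colours give the group and shapes the scan day. Urethane 34 is at the top right for Car2. Urethane 9 has an erythroid mean of 7.38 and an Aqp1 level of 6.21. Urethane 5, 7 and 8 have erythroid means from 5.12 to 5.53 and Aqp1 levels from 5.50 to 5.79. The low Aqp5 levels are mostly of scan day 1.

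With most Aqp1 values low, the genes whose level over the 11 urethane arrays was most like that of Aqp1 were Cd177 (r = 0.91), Ngp (0.90), Stfa2l1 (0.90), Car2 (0.88) and Kctd6 (0.87). Cd177, a surface protein of neutrophils, and Ngp, a neutrophil granule protein, stand with the neutrophil list, whose mean was 11.21 on urethane 34 and at most 9.30 on the other urethane arrays. Over deviations from the mean of each group and scan day on all 17 arrays, the 5 most like Aqp1 were Dcaf12 (r = 0.84), Casp2, Igfbp4, Slc4a1 and Kansl3 (0.80 each).

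For Car4, the 5 genes most alike over the urethane arrays were Wrap73, Timm10b and Tmem128 (r = 0.90 each) and Xxylt1 and Dnajb6 (0.88 each). Over deviations on all 17 arrays they were Tnfsf14 (r = 0.89), Lrg1 (0.88), Slc19a2 (0.88), Gkap1 (0.87) and Tnfrsf9 (0.86). The 2 bases shared none of these names. Each of these correlations was among the highest over all genes tested and is given as a description.

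No other tested gene of either family passed, while 3.14% of all genes did. Of the other aquaporins 4 of 8 on the array were tested, 0 passed in limma and 0 had an unadjusted p below 0.05, with a median log2 difference of -0.01 against -0.03 over all genes. Within days their median was -0.89 on day 1 and 0.58 on day 2, against -0.04 and 0.02 over all genes. The one of smallest p was Aqp11, an intracellular channel, at 0.68 (SE 0.71, limma adjusted p = 0.736). Of the other carbonic anhydrases 10 of 13 were tested and 0 passed, with 3 at an unadjusted p below 0.05, which 14.7% of all genes had. Their median was -0.21, at -0.54 on day 1 and 0.17 on day 2. Car9, the membrane form induced by hypoxia, was at 0.40 (SE 0.14, limma adjusted p = 0.164), and its mean log2 level was 8.37 ± 0.34 (SD, n = 6) in controls against 8.77 ± 0.19 (SD, n = 11) after urethane. The mitochondrial form Car5b was at -0.18 (limma adjusted p = 0.737).

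Transporters that move bicarbonate and protons, the substrates and products of these enzymes, had 1 of 21 tested genes higher, 0 lower and a median of -0.12. Over all genes 2.00% passed as higher. An unadjusted limma p below 0.05 was found for 5 of the 21, and for 14.7% of all genes. The gene was Slc9a8, a sodium and proton exchanger, which rose by 0.61 (SE 0.16, limma adjusted p = 0.0377) and was above the control mean on all 11 urethane arrays. Its call held only without control 33, control 36, urethane 3, 5, 33 or 36 among the 17 arrays left out singly, and its adjusted p ran from 0.0137 to 0.71 over the settings. In the vacuolar proton pump, which acidifies lysosomes, 2 of 19 were higher, 0 lower, and the median was 0.14. Of the 19, 7 had an unadjusted limma p below 0.05. Tcirg1, a membrane subunit, rose by 0.61 (SE 0.14, limma adjusted p = 0.0191), from 11.30 ± 0.43 (SD, n = 6) to 11.91 ± 0.23 (SD, n = 11). It lost the call without control 6_13 alone among the arrays left out singly. Atp6v1a, the catalytic subunit, rose by 0.29 (SE 0.08, limma adjusted p = 0.0416), a call that held singly only without control 36, urethane 3, 31 or 33.

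Genes of glycerol and triglyceride handling, which make or use the glycerol that Aqp3 and Aqp9 pass, had 1 of 13 tested higher, 0 lower and a median of 0.00. Over all genes 2.00% passed as higher. Of the 13, 1 had an unadjusted limma p below 0.05. Mgll, the lipase that frees glycerol from monoglycerides, rose by 0.79 (SE 0.21, limma adjusted p = 0.0415), from 12.40 ± 0.39 (SD, n = 6) to 13.19 ± 0.53 (SD, n = 11). Its call held singly only without control 36, urethane 3, 7, 8 or 9. Of the channels and pumps of airway fluid and cell volume 18 were tested and 0 passed in limma, with 4 at an unadjusted p below 0.05 (14.7% of all genes) and a median of -0.05. Stk39, a kinase that regulates cation and chloride cotransport, was at -0.90 (SE 0.31, limma adjusted p = 0.131), and passed once scan day was a block (limma adjusted p = 0.0333). In that fit 1 gene of this list passed as higher and 1 as lower, and 7.75% of all genes passed in either direction.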

How the data were processed

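RNA of lavage cells was measured on 17 Affymetrix arrays, 1 sample each. The deposited values are probe set intensity on a linear scale from MAS5, per the submitters' processing notes, which give no version. Chip lot, fluidics station and scan day came from the deposited scan records. Of 45101 probe sets 34945 had 1 gene symbol in the platform annotation.

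Levels were log2 of the signal plus 17.1, a pseudocount set to the arrays' median 20th percentile signal. The filter kept the 29550 probe sets whose signal topped the array's 40th percentile on 6 or more arrays. The one of highest mean stood for each of 13390 genes. The comparison of groups used limma 3.58.1 under R 4.3.3 (eBayes with a variance trend, two-sided, Benjamini-Hochberg over all genes, threshold 0.05). Correlations used 100000 permutations, or exact ones where n was 6, in Python 3.11.15. On simulated data for this comparison over 13390 genes limma recovered 40% of 1.5-fold and 58% of 2-fold changes. The simulated noise was independent between genes and arrays, with no scan day or station effect, so recovery in the real data may differ.

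Named genes, besides the members, were up to 3 higher and 3 lower per pathway list past the threshold, or the gene of smallest p where none passed, and the 5 genes most like Aqp1 and Car4. Marker genes named beside a result (Alas2, Slc4a1, Hba-a1, Hbb-b2, Ager, Cav1, Pecam1, Tek, Cldn5, Cdh5 and the airway genes) and Car5b were chosen after their values were seen. The members and lists were chosen with earlier results of these data known. The results were recomputed under 34 other settings, 17 leaving out 1 array and 3 added after seeing the data (fluidics station as a block, station 2 alone, and the day block without control 36). The number of arrays limits the precision.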

Additional observations from a re-analysis of the deposited data

Results flagged for a closer look

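Control 36 was far above the other 5 controls for both Car4 probe sets, by its gap to the next control relative to the whole control range. Its log2 level was 14.01 for the dimmer probe set, where the next control was at 12.31, and 14.31 for the brighter, where the next was at 12.82. The gap was 0.756 and 0.659 of the range, against a critical value of 0.625 for 6 samples. All 14 probe sets were examined in this way, chance gives about 5% of groups, and the 2 probe sets report the same gene on the same array. The urethane group, with 11 arrays, is larger than this check covers.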

How the results depend on the processing

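The difference of Aqp1 stayed between -2.90 and -1.81 over 32 settings and that of Car4 between 0.61 and 1.27 over 34. The lowest value of each came from the replicate block, where only the 3 label numbers found in both groups bear on the difference. Aqp1 did not pass the filter on either scan day alone, so those settings gave it no value. Car2 kept its direction and did not pass in any of 34 settings. Car13 passed in 4 of 34, and the count of tested members other than Aqp1 and Car4 that passed, 0 in the fit of all arrays, was then 1: with scan day as a block, with that block and without control 36, and without control 36 or urethane 9 singly (range 0 to 1 over arrays left out). Aqp5 changed sign with the replicate block (0.11), and Aqp9 with the mean over probe sets (-0.16), array weights (-0.049), the replicate block (-0.29), scan day 2 alone (-0.23) and fluidics station as a block (-0.086). With arrays left out singly Aqp5 ran from -0.53 to 0.10 and Aqp9 from -0.14 to 0.13. Aqp11 turned to -0.47 with RNA quality ratios as covariates and passed at 3.55 with the replicate block. Aqp3 was tested only with no filter (limma adjusted p = 0.455).

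The count of 421 genes was 248 when arrays were centred on their median (203 higher and 45 lower, against 268 and 153), 250 with no variance trend, 1038 with scan day as a block, 1204 with that block and without control 36, 893 and 677 on scan days 1 and 2 alone, 5 on station 2 alone, and 220 (without control 33 or 35) to 635 (without control 36) with arrays left out singly. Control and urethane arrays shared 3 label numbers. Their deviations correlated at -0.04, -0.18 and -0.13, which gives no sign that the numbers pair samples, though 3 correlations cannot exclude it. The replicate block gave 3024 genes, and in it only those 3 numbers bear on the difference between groups.

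The interaction with scan day passed for 11 genes, 0 with quantile normalization or a pseudocount of 64, 27 with median centring, 2 with the mean over probe sets, 3 with no variance trend, and 0 to 670 (without control 37) with arrays left out singly, where leaving out control 6_13 or control 14 left 1 control on scan day 1, assumed to vary like the rest. Of the 20 relations 4 passed, 1 with a pseudocount of 64 (the erythroid list with Car2), 1 with median centring (the alveolar macrophage list with Car4, not among the 4), 0 with the mean over probe sets or quantile normalization, and 0 to 3 with urethane arrays left out singly. The causes were not tested. Low signals limit Aqp1 after urethane, Aqp3 and Aqp5 on scan day 1.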

Other observations

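Several of the measured genes are neighbours in assembly GRCm38.p6. Car13, Car1, Car3 and Car2 follow each other on chromosome 3. The log2 differences were 0.43 for Car13, -0.59 for Car3 (limma adjusted p = 0.325) and 0.51 for Car2, and Car1 was below the filter. Aqp2, Aqp5 and Aqp6 follow each other on chromosome 15, with log2 differences of 0.19, -0.21 and -0.21 (limma adjusted p from 0.888 to 0.922), and none passed. Aqp3 and its neighbour Aqp7 on chromosome 4 were both below the filter.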
